A study of Homo sapiens with 6 samples.

Results

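10 genes for immune checkpoint ligands were followed in docetaxel-resistant prostate cancer cells in which MUC1 was silenced: CD274, PDCD1LG2, CD276, PVR, CD47, LGALS9, MICA, MICB, ULBP2 and NT5E. They were chosen by symbol, as inhibitory or activating surface ligands that a tumor cell can present to T cells, NK cells or macrophages, and all 10 were found among the 28008 genes of the count table. RNA-Seq profiles came from DU-145-DR/tet-MUC1shRNA cells, which derive from DU-145, a human prostate cancer line, after selection for resistance to docetaxel (DTX), and which carry a short hairpin RNA against MUC1 that doxycycline (DOX) switches on. DOX-negative cells (3 libraries) received the vehicle DMSO, and DOX-positive cells (3 libraries) received 500 ng/ml DOX. All 6 libraries were taken as the same resistant, hairpin-carrying line, although the hairpin is named in the treatment labels of the DOX-positive samples alone. Silencing of MUC1 and exposure to DOX cannot be told apart here, since cells with a control hairpin were not analysed.

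Checkpoint ligands are read by receptors on immune cells. PD-L1 (the product of CD274) and PD-L2 (PDCD1LG2) engage PD-1 and restrain T cells, PVR binds the inhibitory receptor TIGIT and the activating receptor DNAM-1, and CD47 binds SIRPα on macrophages and restrains phagocytosis. MICA, MICB and the ULBP proteins act in the opposite sense: they are stress-induced ligands of the activating receptor NKG2D on NK cells and cytotoxic T cells. NT5E encodes CD73, the surface enzyme that makes immunosuppressive adenosine from AMP. CD274 is a classical target of interferon signaling through JAK, STAT and IRF proteins.

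DOX-positive cells held more CD274, NT5E, MICA and MICB mRNA and less ULBP2 mRNA than DOX-negative cells. CD274 rose, with a mean of 22.5 ± 0.818 CPM (SD, n = 3) in the DOX-negative and 45.3 ± 0.587 CPM (SD, n = 3) in the DOX-positive cells. NT5E, MICA and MICB rose by 1.42-, 1.35- and 1.32-fold in mean CPM, and ULBP2 fell to 35.1% of its DOX-negative mean. CD276, PVR and CD47 did not pass the test, and PDCD1LG2 and LGALS9 were at or near the detection floor. CPM are counts scaled to the TMM-adjusted library total, and a call is an adjusted p under 0.05 in edgeR's quasi-likelihood test (two-sided, Benjamini-Hochberg adjusted over 14292 genes). Of the 8 genes tested, 5 were called, against 26.7% of all genes tested. The 4 called higher stand against a background of 13.0% of genes called higher, and the 1 called lower against 13.7% called lower. The median log2 fold change was 0.19 over the 8 genes and -0.00336 over all genes tested. The p-values measure the spread between triplicate cultures of this line. In bulk RNA, a change in the number of cells that express a gene and a change in RNA per cell cannot be told apart.

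**Figure D1:**
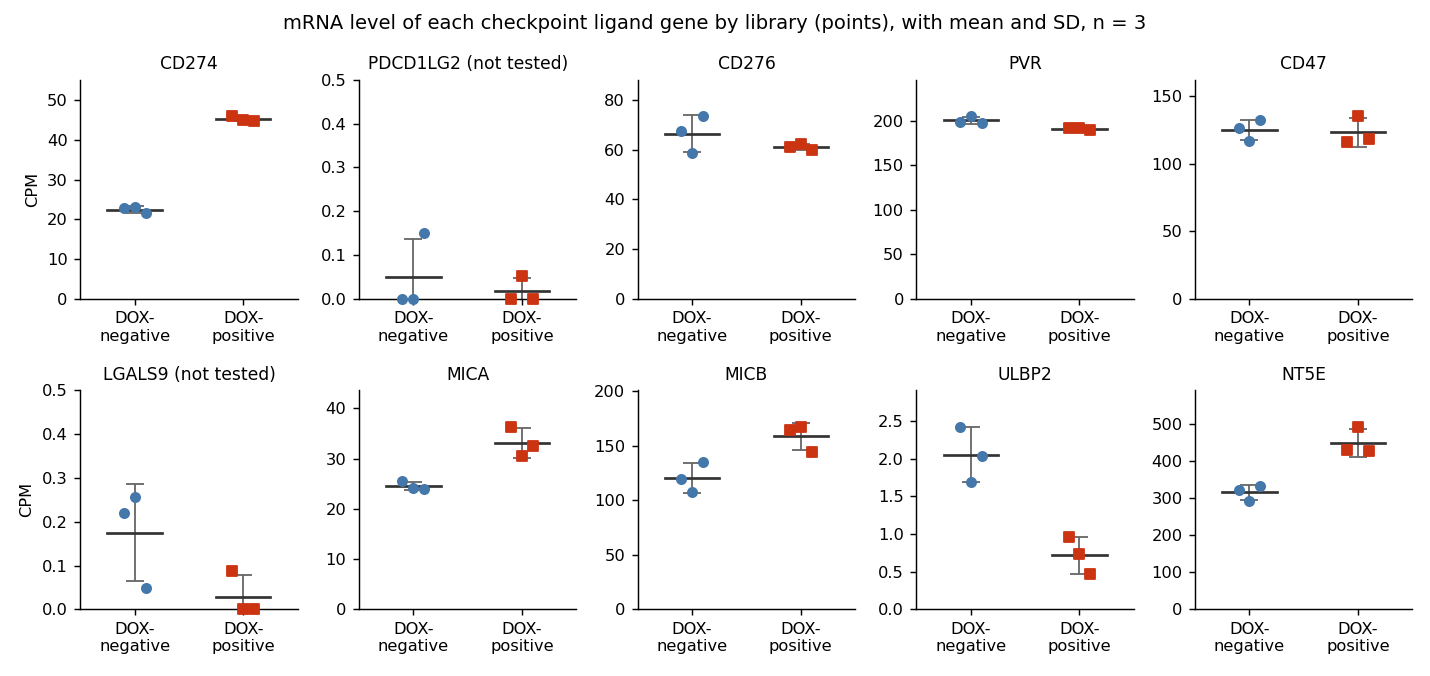
Each panel plots 1 gene, with the CPM of each library as a point (blue circles, DOX-negative; red squares, DOX-positive), the mean as a bar and the SD as a whisker (n = 3). The groups are apart for CD274 (means 22.5 and 45.3 CPM), NT5E, MICA, MICB and ULBP2, lie close for CD276, PVR and CD47, and PDCD1LG2 and LGALS9 stay below 0.5 CPM.

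The libraries held between 15092691 and 23243713 counts, and a floor of 3 counts corresponded to 0.131 to 0.202 CPM, which covers counting error only. MUC1, the targeted gene, had 387, 484 and 396 counts in the DOX-negative and 75, 74 and 66 counts in the DOX-positive cells (log2 fold change -2.52, SE 0.146, edgeR adjusted p = 4.47e-11). The epithelial markers KRT8, KRT18, KRT19, EPCAM, CDH1 and KRT7, all 6 that were tested, were called higher with DOX. Their summed level, with KRT5 near 0, ranged from 1235 to 1430 CPM in DOX-negative libraries and from 2087 to 2166 CPM in DOX-positive libraries, and their part in the ligand results was not tested. The mesenchymal marker VIM did not pass (log2 fold change 0.034). The prostate markers KLK3 and FOLH1 were at 0 in every library. Of 19 immune cell markers, 17 had at most 9 counts in any library, with CD3D, CD3E, CD3G and MS4A1 at 0; the other 2, CD68 (mean 101 and 169 CPM) and CD79A (1.68 and 16.5 CPM), were called higher. The summed immune list ranged from 94.2 to 109 CPM in the DOX-negative and from 176 to 198 CPM in the DOX-positive cells. Nearly all of this sum was CD68 and CD79A, so its rise was the rise of these 2 genes. The general leukocyte marker PTPRC had at most 3 counts in any library. The part of CD68 and CD79A in the ligand results was not tested. Stromal and endothelial markers had at most 17 counts in any library, except for COL1A1 (66 to 96 counts).

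CD274 was the member with the largest rise. It lies on chromosome 9 (chr9:5450503-5470566, plus strand, GRCh38, GENCODE 29 annotation). DOX-negative replicates 1, 2 and 3 had 22.9, 23 and 21.5 CPM, and DOX-positive replicates had 46, 45.1 and 44.8 CPM. Every DOX-positive library lay above every DOX-negative library, and within each group the libraries lay close together. The log2 fold change was 1.01 (SE 0.0853, 95% interval 0.83 to 1.19, edgeR adjusted p = 1.28e-08), which is 1.78- to 2.28-fold over the interval. No other gene overlapped its exons, and none of its 50-base words occurred in a transcript of another gene.

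The promoter of CD274 is shown because CD274 was the only member with a match to the interferon motifs searched in the 250 bases before its RefSeq start (GRCh38.p14, plus strand). The 211 bases printed, chr9:5450292-5450502, end where the first GENCODE exon begins, upstream of the RefSeq start. Capitals mark 2 overlapping matches to the interferon regulatory factor element, read on the minus strand.
CD274: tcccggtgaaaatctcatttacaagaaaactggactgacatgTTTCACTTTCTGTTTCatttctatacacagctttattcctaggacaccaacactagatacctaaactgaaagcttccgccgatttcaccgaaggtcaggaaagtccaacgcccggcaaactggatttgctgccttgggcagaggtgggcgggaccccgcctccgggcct
The element was searched as GAAANNGAAA on both strands of the 250 bases, and 3.02% of 35116 promoter windows held it. The interferon-gamma activated site, searched as TTCNNNGAA, had 1 match in the CD274 window and was held by 6.57% of windows. Of the members, 9 had a RefSeq promoter entry, all but PDCD1LG2, and apart from CD274 none of them held either motif. No member held the NF-κB element GGGNNTTTCC (1.73% of windows), the AP-1 element TGANTCA (6.57%), the E-box CACGTG (6.34%) or the heat shock element GAANNTTCNNGAA (0.441%). These matches are letters in a window and were not tested for binding.

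Genes of the pathway that drives CD274 transcription moved in both directions. Of 18 such genes, listed with earlier results of these data known, 17 were tested, 4 were called higher and 5 lower. That is 52.9% of those tested, against 26.7% of all genes tested, and the median log2 fold change was 0.013. Among those lower, IFNGR1, the ligand-binding chain of the interferon-gamma receptor, went from 57.8 ± 6.35 to 31.7 ± 0.783 CPM (SD, n = 3; log2 fold change -0.87, SE 0.0885, edgeR adjusted p = 1.9e-07). IRF9, a DNA-binding factor of type I interferon signaling, had a log2 fold change of -0.57 (SE 0.155). IRF2, a further factor of the same family, had -0.50 (SE 0.12), and both passed the threshold. The genes called higher included MYC, a transcription factor (log2 fold change 0.64, SE 0.0732), the kinase JAK1 (0.43, SE 0.0599) and the feedback inhibitor SOCS3 (0.39, SE 0.123). IRF1, an interferon-induced transcription factor, did not pass (11.6 ± 0.822 and 11.2 ± 0.406 CPM, SD, n = 3; log2 fold change -0.051, 95% interval -0.31 to 0.21). The interferon-gamma receptor chain was lower in the same libraries in which CD274 was higher. Counts of IFNGR1 per count of CD274 ranged from 2.23 to 2.97 in the DOX-negative and from 0.687 to 0.713 in DOX-positive libraries. IFNGR1 was named for its large fall and CD274 had the largest rise of the members. Their ratio therefore had to differ between the groups and is no separate result. The part of interferon signaling in the rise of CD274 was not tested.

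Of 19 genes that handle the PD-L1 protein, all were tested, 2 were called higher, 2 lower and 15 did not pass, with a median log2 fold change of 0.039. B3GNT3, a glycosyltransferase that acts on PD-L1, rose, with 7.32 ± 0.992 CPM in the DOX-negative and 15.5 ± 1.06 CPM in the DOX-positive cells (SD, n = 3; log2 fold change 1.08, SE 0.134, edgeR adjusted p = 3.02e-06). TMUB1 had a log2 fold change of 0.35 (SE 0.0938). The palmitoyltransferase gene ZDHHC9 had -0.30 (SE 0.0802) and STT3A, a catalytic subunit of the N-glycosylation complex, had -0.26 (SE 0.0656). CMTM6, which keeps PD-L1 at the cell surface, had 101 ± 2.91 and 105 ± 4.71 CPM (SD, n = 3) and did not pass (edgeR adjusted p = 0.658).

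The other PD-1 ligand gene, PDCD1LG2 (chr9:5510570-5571254, plus strand), sits next to CD274 and was barely detected. It had 0, 0 and 3 counts in the DOX-negative and 0, 1 and 0 counts in the DOX-positive cells, so a change was not detectable at this depth. Within 250 kb of both genes lay 6 other protein-coding genes, of which 4 were tested. PLGRKT (log2 fold change 0.50, SE 0.151) and RIC1 (0.34, SE 0.0765) were called higher and ERMP1 (-0.91, SE 0.0749) was called lower.

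The other B7 family member on the list, CD276, encodes B7-H3 (chr15:73683966-73714518, plus strand). Its CPM were 67.6, 58.5 and 73.5 in the DOX-negative and 61, 62.3 and 59.8 in the DOX-positive cells, and the groups overlapped. The log2 fold change was -0.12 (95% interval -0.30 to 0.047, edgeR adjusted p = 0.286). PVR (chr19:44643798-44663583, plus strand) had 199, 205 and 197 CPM in the DOX-negative and 192, 192 and 189 CPM in the DOX-positive cells. These groups did not overlap, but the difference was small and did not pass (log2 fold change -0.069, 95% interval -0.19 to 0.055, edgeR adjusted p = 0.428). Exons of PVR overlap CEACAM19 by 121 bases on the same strand. Groups that did not overlap were seen for 6 of the 8 members tested and for 39.8% of all genes tested. CD47 (chr3:108043094-108091862, minus strand) had 126, 117 and 132 CPM in the DOX-negative and 116, 135 and 118 CPM in the DOX-positive cells, with overlap. Its log2 fold change was -0.025 (95% interval -0.18 to 0.13, edgeR adjusted p = 0.841). The intervals of these 3 genes leave room for changes between 0.814- and 1.09-fold. LGALS9, which encodes galectin-9, a ligand of TIM-3 (chr17:27629798-27649560, plus strand), had 4, 5 and 1 counts in the DOX-negative and 2, 0 and 0 counts in the DOX-positive cells and was not tested. Other genes can share reads with LGALS9: 20.1% of its 50-base words occur in other genes, among them LGALS9C (9.31%), LGALS9B (4.71%) and AC015688.4 (7.43%), which overlaps its exons by 294 bases on the same strand, and its counts are uncertain for that reason too.

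**Figure D2:**
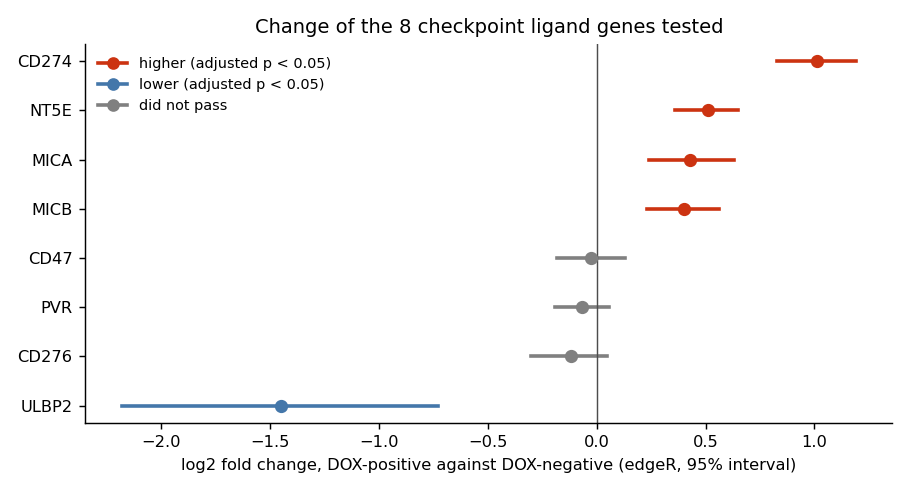
Points are log2 fold changes of DOX-positive against DOX-negative cells for the 8 genes tested, and lines are 95% intervals from edgeR. CD274, NT5E, MICA and MICB lie to the right of 0, ULBP2 lies to the left with the widest interval (-2.18 to -0.73), and the intervals of CD47, PVR and CD276 cross 0.

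In the CD47 axis, 7 genes were tested, 2 were called higher and 1 lower (median log2 fold change 0.049). MFGE8, a bridging protein for phagocytosis, had a log2 fold change of 0.39 (SE 0.0747), and CALR, which encodes the pro-phagocytic signal calreticulin, had 0.18 (SE 0.0623). THBS1, a secreted ligand of CD47, had -0.19 (SE 0.0689) and its groups overlapped. QPCTL, the enzyme that modifies CD47 for SIRPα binding, did not pass (edgeR adjusted p = 0.348). SIRPA, which encodes the CD47 receptor SIRPα, was detected in these cells at 51.8 ± 2.48 and 53.7 ± 3.89 CPM (SD, n = 3) and did not pass (edgeR adjusted p = 0.658).

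MICA and MICB, the NKG2D ligand genes of the MHC region on chromosome 6, rose by similar amounts. MICA (chr6:31399784-31415315, plus strand) had 25.5, 24.2 and 24 CPM in the DOX-negative and 36.3, 30.5 and 32.5 CPM in the DOX-positive cells. MICB (chr6:31494881-31511124, plus strand) had 119, 107 and 135 CPM in the DOX-negative and 164, 167 and 144 CPM in the DOX-positive cells. Neither gene's groups overlapped, and DOX-positive replicate 3 came closest to the DOX-negative range for MICB. The log2 fold change was 0.43 for MICA (SE 0.094, 95% interval 0.24 to 0.63, edgeR adjusted p = 0.0015) and 0.40 for MICB (SE 0.0799, 95% interval 0.23 to 0.56, edgeR adjusted p = 0.000747). Counts of MICA per count of MICB ranged from 0.178 to 0.226 in the DOX-negative and from 0.182 to 0.226 in DOX-positive libraries, so the ratio within a library overlapped fully between the groups. Of the 50-base words of MICA, 1.89% occur in MICB, and 62 bases of its exons overlap HCP5 on the same strand. Only words in genes of another symbol were counted, so copies of MICA or MICB on alternate MHC sequences were not examined. Among the other protein-coding genes within 250 kb of MICA and MICB, 16 were tested, none was called higher and 3 were called lower, and the class I genes HLA-B (log2 fold change 0.02) and HLA-C (-0.12) did not pass.

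Sequence upstream of the RefSeq starts of MICA (chr6:31403345-31403578) and MICB (chr6:31497895-31498085) is shown to compare the pair (RefSeq, GRCh38.p14, plus strand). Both stretches lie inside the GENCODE gene spans and end before the first GENCODE exon within the 250-base window. Capitals mark bases that differ from the other promoter or have no partner in it.
MICA: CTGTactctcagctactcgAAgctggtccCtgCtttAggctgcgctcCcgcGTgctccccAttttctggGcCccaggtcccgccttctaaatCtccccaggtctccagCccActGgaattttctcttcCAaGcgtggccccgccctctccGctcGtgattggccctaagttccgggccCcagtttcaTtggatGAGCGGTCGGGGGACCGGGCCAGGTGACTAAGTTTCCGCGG
MICB: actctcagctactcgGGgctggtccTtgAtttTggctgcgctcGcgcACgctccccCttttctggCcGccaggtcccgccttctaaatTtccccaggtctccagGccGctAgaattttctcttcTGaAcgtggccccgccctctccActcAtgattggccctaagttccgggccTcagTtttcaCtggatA
Over 190 aligned bases, 167 were identical (87.9%). The run of capitals at the 3′ end of MICA lies beyond the end of the MICB stretch, apart from its first base, which differs from the last base of MICB.

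ULBP2 (chr6:149942000-149949235, plus strand), a further NKG2D ligand gene, moved the other way. It had 44, 33 and 41 counts in the DOX-negative and 22, 14 and 7 counts in the DOX-positive cells, which is 2.42, 1.69 and 2.04 against 0.959, 0.731 and 0.471 CPM. Every DOX-positive library lay below every DOX-negative library. The log2 fold change was -1.45 (SE 0.349, 95% interval -2.18 to -0.73, edgeR adjusted p = 0.00347), and the few counts gave the widest interval of the 8 genes, 0.221- to 0.603-fold. ULBP2 reads are partly shared with paralogs: 29.4% of its 50-base words occur in RAET1L, which had 0 to 3 counts per library, and 11.6% in RAET1G, which had 10 to 24. With a minimum of 10 counts in every library, ULBP2 was not tested and the 4 ligand genes called were all higher. Within 250 kb of ULBP2, 9 other protein-coding genes were tested, of which 2 were called higher and 2 lower. PPP1R14C (log2 fold change 0.849, SE 0.19) and LRP11 (0.305, SE 0.0773) were higher. NUP43, a nuclear pore gene (-1.38, SE 0.0888, edgeR adjusted p = 1.82e-10), and LATS1 (-0.344, SE 0.0723) were lower. The adjacent genes RAET1G and ULBP1 did not pass, and the median log2 fold change of the 9 neighbors was 0.022.

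The remaining NKG2D ligand genes that were tested did not pass. ULBP1 had 33.7 ± 5.66 and 28.2 ± 4.11 CPM (SD, n = 3; edgeR adjusted p = 0.111), and ULBP3 had 19.6 ± 2.2 and 21.5 ± 0.781 CPM (edgeR adjusted p = 0.417). RAET1E (2.28 and 1.57 CPM) and RAET1G (0.81 and 0.889 CPM) were low, as ULBP2 was. Of 10 genes on the list of further NKG2D ligands and the proteases that release ligands from the surface, 9 were tested, 1 was called higher and 1 lower. MMP14, a membrane-anchored protease known to cleave MICA, went from 34.6 ± 0.855 to 68.3 ± 2.77 CPM (SD, n = 3; log2 fold change 0.98, SE 0.0776, edgeR adjusted p = 4.95e-09). ADAM10, another sheddase, was lower (log2 fold change -0.19, SE 0.0647, edgeR adjusted p = 0.0333). Surface protein was not analysed here.

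NT5E (chr6:85449584-85495791, plus strand) rose with CD274. Its CPM were 320, 293 and 333 in the DOX-negative and 428, 491 and 426 in the DOX-positive cells, with no overlap. The log2 fold change was 0.51 (SE 0.0686, 95% interval 0.36 to 0.65, edgeR adjusted p = 9.22e-06). Its neighbors SNX14 and SYNCRIP, the 2 coding genes within 250 kb, did not pass. Of 16 further adenosine pathway genes, 12 were tested, 2 were called higher and 3 lower (median log2 fold change -0.075). PNP, a purine salvage enzyme downstream of adenosine, had a log2 fold change of 0.42 (SE 0.0813), and the low-affinity adenosine receptor gene ADORA2B had 0.40 (SE 0.134). ADORA1, another adenosine receptor gene, had -0.52 (SE 0.136), the nucleoside transporter gene SLC29A1 had -0.32 (SE 0.082) and ENPP1, an ectoenzyme that yields AMP, had -0.24 (SE 0.084). ENTPD1, which encodes the CD39 enzyme upstream of CD73, had 0 to 3 counts per library and was not tested.

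Among 24 other B7 and coinhibitory ligand genes, 14 were tested, 4 were called higher and 6 lower (median log2 fold change -0.13). The butyrophilin genes BTN3A3 (-0.90, SE 0.193), BTN3A1 (-0.85, SE 0.139) and BTN3A2 (-0.59, SE 0.0979), which take part in activation of γδ T cells, were lower on the log2 scale. VSIR, which encodes VISTA, went from 55.2 ± 1.45 to 37.4 ± 4.21 CPM (SD, n = 3; log2 fold change -0.56, SE 0.0867, edgeR adjusted p = 4.93e-05). CEACAM1, a ligand of TIM-3, rose from low levels, with 4 to 10 counts per DOX-negative and 17 to 41 counts per DOX-positive library (log2 fold change 1.75, SE 0.479, edgeR adjusted p = 0.00922). LGALS3 (0.30, SE 0.087) and NCR3LG1, which encodes B7-H6, the NKp30 ligand (0.28, SE 0.0887), were also called higher. CD80 was at 0 in every library and CD86 had at most 2 counts.

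Of 17 costimulatory, adhesion and death receptor genes, 10 were tested, 4 were called higher and 1 lower (median log2 fold change -0.05). FAS, the death receptor for FAS ligand, went from 40 ± 3.82 to 63.4 ± 12.3 CPM (SD, n = 3; log2 fold change 0.67, SE 0.108, edgeR adjusted p = 8.55e-05). The TRAIL receptor gene TNFRSF10A had a log2 fold change of 0.48 (SE 0.0853) and TNFSF9, which encodes 4-1BB ligand, had 0.33 (SE 0.0935). CD70, the ligand of CD27, had -0.71 (SE 0.132). A list of 16 receptor genes of immune cells, which includes PDCD1, TIGIT, KLRK1 and CTLA4, had at most 22 counts in any library and none was tested. Over the 7 companion lists of ligands and pathway genes together, 88 genes were tested and 38 were called (43.2%), 19 higher and 19 lower, beside 62.5% of the 8 members and the 26.7% of all genes given above.

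**Figure D3:**
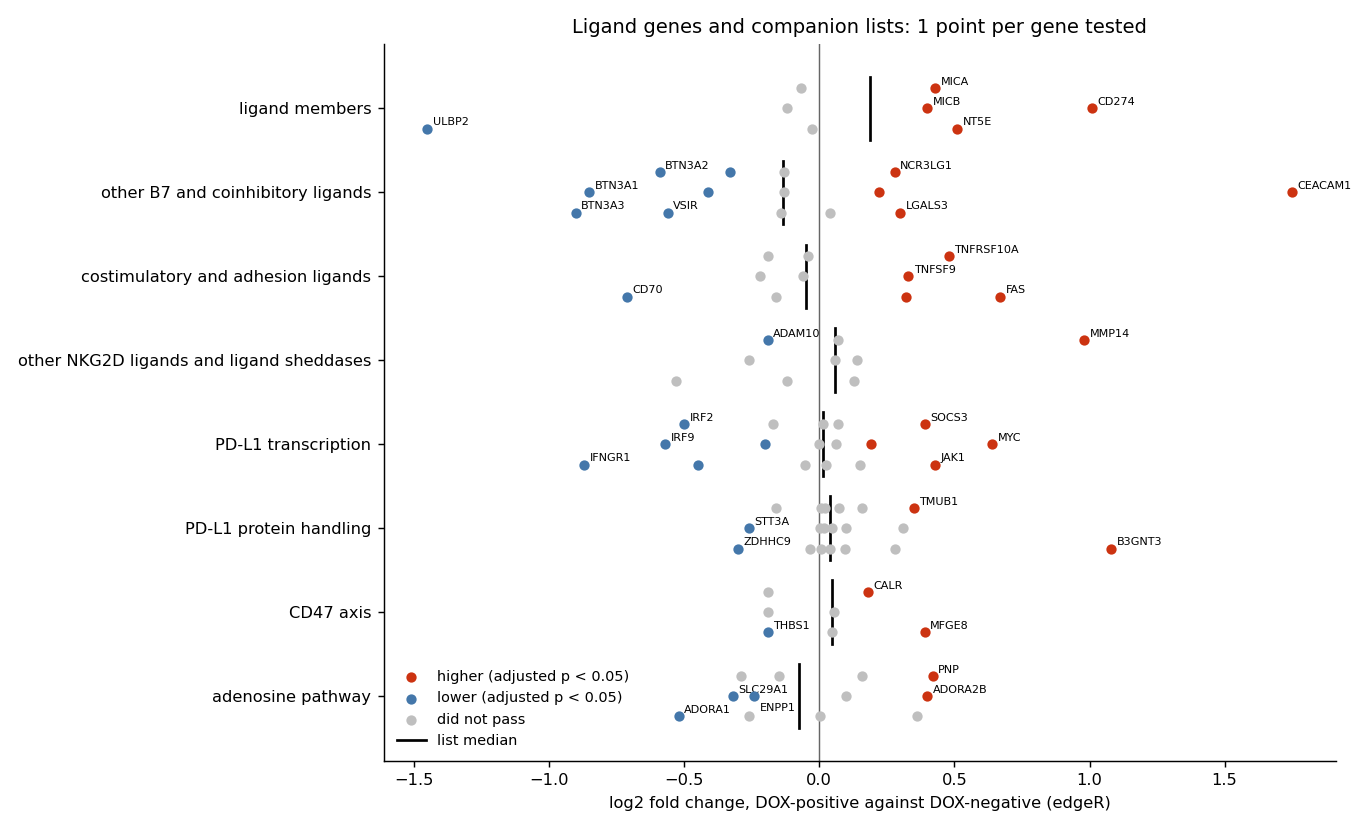
Each point is the log2 fold change of 1 gene tested, in rows by list, with genes called higher in red, called lower in blue and not called in gray, and the black bar marks the list median; called genes described in the text carry their names. The members run from ULBP2 (-1.45) to CD274 (1.01); the transcription list holds IFNGR1 at -0.87 and MYC at 0.64.

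Levels between genes were compared per length. By deposited TPM (transcript levels that the authors scaled by gene length and library), the mean order in DOX-negative cells was NT5E (107 ± 26 TPM, SD, n = 3), PVR (45.2 ± 14.7), CD47 (31.9 ± 7.86), CD276 (25.8 ± 4.93), CD274 (8.4 ± 2.79), MICB (7.54 ± 1.46), MICA (2.74 ± 0.826) and ULBP2 (2.33 ± 0.565). Within each of the 6 libraries this order held, except that CD274 and MICB changed places in DOX-negative replicate 3. Across DOX-negative libraries the TPM ranges of PVR and CD47, CD47 and CD276, CD274 and MICB, and MICA and ULBP2 overlapped. A library's TPM also depended on 5 short noncoding RNAs (RPPH1, RN7SK and the RN7SL1, RN7SL2 and RN7SL3 genes), which took between 34.4% and 64.4% of it. The lengths behind the TPM also departed from the annotation for some members: the length implied for MICA was 7.15 times, for MICB 10.6 times and for PVR 2.41 times the summed exon length in GENCODE 29, beside 3.46% of genes with a ratio above 2 and a median ratio of 1. Deposited TPM therefore give lower levels for these genes than counts per kb of annotated exon. Per kb, the DOX-negative order was NT5E (69.6 ± 4.42 CPM per kb, SD, n = 3), PVR (56.9 ± 1.19), MICB (43 ± 4.95), CD47 (15.2 ± 0.899), CD276 (12 ± 1.37), MICA (10.3 ± 0.346), CD274 (5.47 ± 0.199) and ULBP2 (1.52 ± 0.272). MICB was at rank 6 by TPM and at rank 3 per kb, and which length suits its counts was not tested. In that per-kb order, CD276 and MICA overlapped in DOX-negative cells, and every other pair of neighbors was apart. In DOX-positive cells, CD274 (11 ± 0.143 CPM per kb) reached the level of CD276 (11 ± 0.226), MICB (56.6 ± 4.61) overlapped PVR (54.2 ± 0.414) and MICA (13.9 ± 1.24) overlapped CD47 (15 ± 1.25). NT5E (98.8 ± 8.07) stayed the highest and ULBP2 (0.534 ± 0.181) the lowest of the 8.

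**Figure D4:**
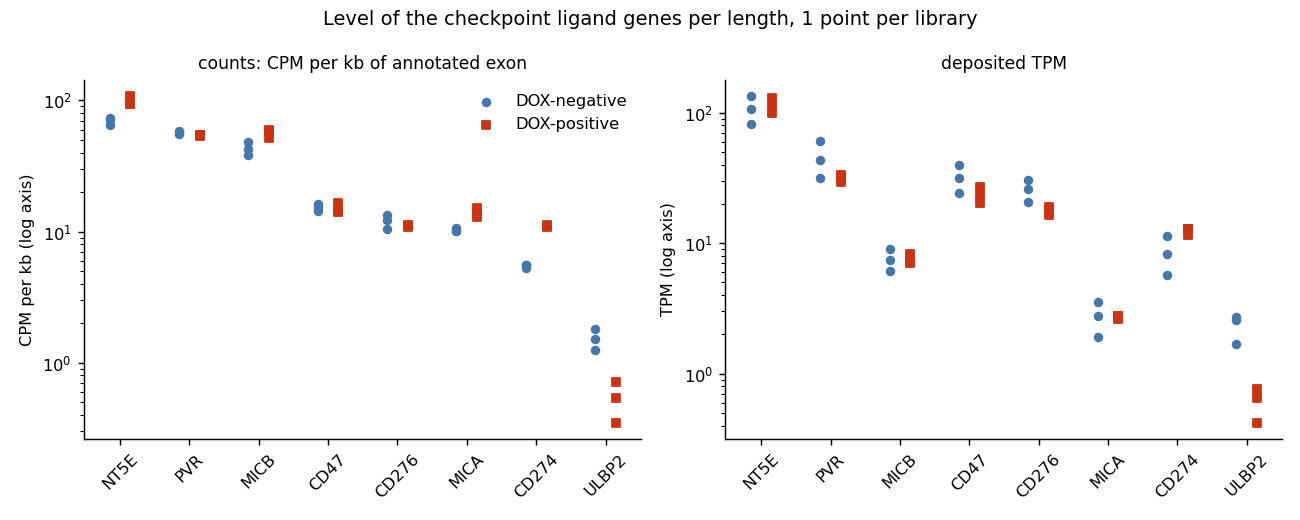
Points are libraries (blue circles, DOX-negative; red squares, DOX-positive) on a log axis, as CPM per kb of annotated exon on the left and deposited TPM on the right. MICB lies near PVR on the left (43 and 56.9 CPM per kb in DOX-negative cells) and near CD274 on the right (7.54 and 8.4 TPM), and the DOX-negative libraries spread more on the right.

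The calls of CD274, NT5E, MICA and MICB depended on the scaling of the table. With limma on log2(TPM + 1) of the deposited TPM, the log2 fold change was 0.556 for CD274 (adjusted p = 0.288), 0.111 for NT5E (adjusted p = 0.787), 0.0141 for MICA (adjusted p = 0.973) and 0.00243 for MICB (adjusted p = 0.996). On that scale the median gene moved by -0.335, and 9.01% of its 322 called genes were higher, beside 48.8% of the 3816 genes called from counts. Relative to the median gene, the TPM changes were 0.892 for CD274, 0.446 for NT5E, 0.35 for MICA and 0.338 for MICB. After TPM were rescaled without the 5 short noncoding RNAs, CD274 (0.945, limma adjusted p = 0.000113), NT5E (0.479, 0.00226) and MICB (0.353, 0.0341) passed again, and MICA did not (0.346, adjusted p = 0.0602). ULBP2 was lower in each of these fits.

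**Figure D5:**
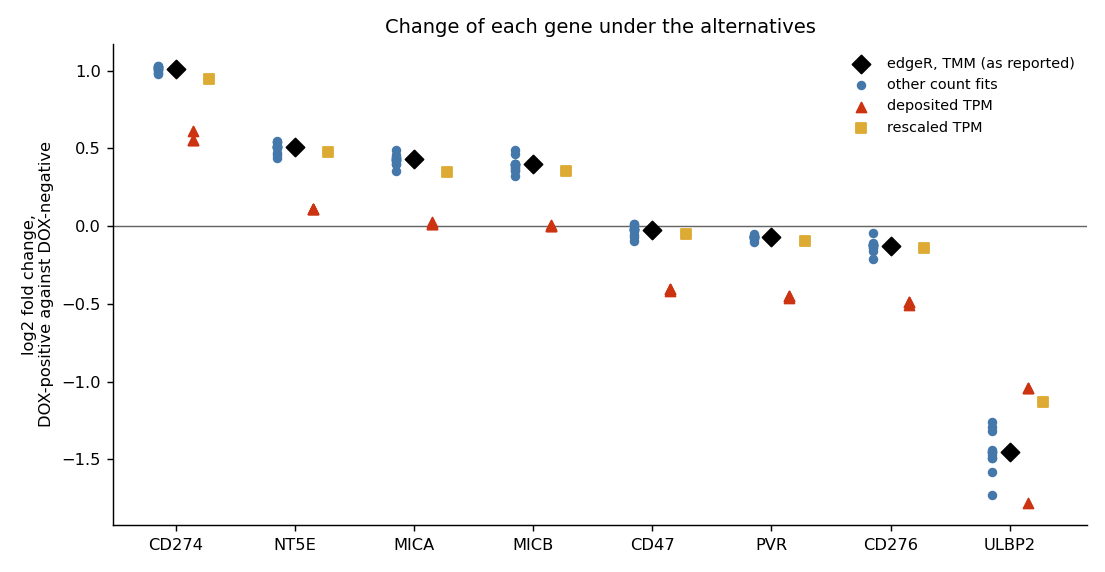
The y axis is the log2 fold change of DOX-positive against DOX-negative cells for each gene tested, from the fit as reported (black), the other fits to counts (blue), limma on deposited TPM (red) and limma on rescaled TPM (yellow). The other fits to counts lie close together for CD274 (0.976 to 1.03), while deposited TPM place 7 of the 8 genes lower than the counts do and ULBP2 on either side.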

How the data were processed

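The authors deposited whole-number read counts for 28008 genes and TPM (scaled by length and to 1 total per library) for poly(A)-selected RNA-Seq libraries from triplicate cultures. The submitters' processing notes name STAR, DESeq2 and GRCh38; versions, annotation and counting by strand are not given in the sources used here. Groups and replicate numbers came from sample titles; columns name the resistant line differently, but match by DOX state and number.

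Counts were tested in R 4.3.3 with edgeR 4.0.16 (filterByExpr, TMM, glmQLFit and glmQLFTest, two-sided, group as the only term, adjusted p under 0.05). SE was taken as the size of the log2 fold change over the root of its F statistic. Alternatives used DESeq2 1.42.0 and limma 3.58.1, the latter on log2(TPM + 1) or log2(TPM + 0.1) for genes with at least 0.5 TPM in 3 libraries, a scale that understates changes of low genes. Simulated counts were used to check edgeR, with and without the replicate number as a term, DESeq2 and limma on log2(CPM + 1). The fits to TPM and the other alternatives were not simulated. Libraries within a group differed beyond sampling noise (chi-square per degree of freedom 3.65 to 19).

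Exon lengths and 50-base words came from GENCODE 29, and promoters from RefSeq (GRCh38.p14). The members and lists were chosen with earlier results of these data known. Named companions were, per list, up to 3 genes called higher and 3 lower with the largest change, and of the markers those with most counts or at 0. VSIR, IRF1, CMTM6, QPCTL, SIRPA, ENTPD1, CD80, CD86, the uncalled NKG2D ligands and the neighbors were named after their values were seen. A few list genes are not reported by name.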

Additional observations from a re-analysis of the deposited data

How the results depend on the processing

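Leaving out 1 library at a time left 5 ligand genes called in each of the 6 fits (5 to 5) and gave 2784 to 3645 genes called in all, 29 to 38 companion genes called and a log2 fold change of -2.62 to -2.41 for MUC1. Ranges were 0.982 to 1.03 for CD274, 0.437 to 0.547 for NT5E, 0.357 to 0.489 for MICA, 0.319 to 0.486 for MICB, -1.73 to -1.26 for ULBP2, -0.209 to -0.0456 for CD276 and -0.0809 to -0.0516 for PVR. CD47, which is near 0, turned positive without DOX-negative replicate 3 (0.0157), DOX-positive replicate 1 (0.0162) or DOX-positive replicate 3 (0.00326), with a range of -0.0968 to 0.0162.

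The labels give same-numbered libraries nothing in common but the number. Their deviations from the group mean correlated at -0.095 to -0.0189, and those of differently numbered pairs at -0.0647 to 0.0927. Deviations sum to 0 within a group, so these values cannot show whether a culture or batch was shared. With the replicate block, 3158 genes were called in all, 3136 of them shared with the 3816, and the calls of the ligand genes did not change (log2 fold change 1.01 for CD274, 0.506 for NT5E, 0.427 for MICA, 0.399 for MICB, -1.49 for ULBP2).

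Deposited TPM moved the counts of calls. With limma, log2(TPM + 1), log2(TPM + 0.1) and log2(TPM + 1) with no filter gave 322, 355 and 0 genes called in all, 1, 1 and 0 ligand genes, and 3, 3 and 0 companion genes. The same 3 fits gave log2 fold changes of 0.556, 0.611 and 0.556 for CD274, 0.0141, 0.0293 and 0.0141 for MICA, 0.00243, 0.00423 and 0.00243 for MICB and 0.111, 0.112 and 0.111 for NT5E, none past the threshold. With no filter, ULBP2 (-1.04) and MUC1 (-2.48) missed it too. Rescaled TPM left MICA at 0.346, not past it. A minimum of 10 counts in every library left 4 ligand genes called, all higher, since ULBP2 was then not tested. A fold threshold of 1 on the log2 scale left 368 genes in all, 2 ligand genes (CD274 and ULBP2) and 2 companion genes. The cause of the TPM differences was not tested beyond the rescaling.

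Ranking per kb of exon, an alternative chosen after seeing the data, moved CD274 from rank 5 to 7, CD276 from 4 to 5, CD47 from 3 to 4, MICA from 7 to 6 and MICB from 6 to 3 in DOX-negative cells. In DOX-positive cells it moved CD274 from 5 to 6, CD276 from 4 to 7, PVR from 2 to 3, CD47 from 3 to 4, MICA from 7 to 5 and MICB from 6 to 2. Depth limits PDCD1LG2 and LGALS9, which stayed within a few counts of the floor, and ULBP2, with 7 to 44 counts per library.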
